A study of Mus musculus with 12 samples.

Results

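The miR-101 family of microRNAs was followed in whole liver of male and female CD1 mice. The family is read as 4 mature arms of 2 hairpins, miR-101a-3p and miR-101a-5p from the Mir101a hairpin and miR-101b-3p and miR-101b-5p from the Mir101b hairpin. The arms were taken by name from a table of 1906 mature microRNA names. All 4 were found, each at 1 locus that overlapped no locus of another name, and 3 of them passed the filter on low counts that left 419 names. Small RNA was sequenced from 6 male and 6 female livers at 8 weeks of age. Every animal was of the outbred strain Crl:CD1(ICR), bought from a commercial breeder, and the labels give no treatment or genetic change. Each liver gave 1 library. Neither housing nor batches of RNA preparation are given in the labels, so the errors below measure the spread between these livers. The family was chosen with the male-female values of its arms known, and miR-101b-5p had been singled out for its difference between the sexes. All male-female values of the 4 arms are therefore given as a description, with no p.

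A microRNA hairpin is cut into a short duplex, of which usually a single arm, the guide, is kept in the Argonaute protein while the other arm is degraded. The guide pairs with messenger RNAs mainly through its seed, the bases 2 to 8 from its 5′ end. miR-101-3p is the guide arm of this family. It is known for repressing Ezh2, the histone methyltransferase of the Polycomb complex, and in human hepatocellular carcinoma its level is reduced.

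The mature sequences are shown because the arms differ from each other in few bases, which decides what the counts can tell apart. They are from RefSeq (GRCm38.p6), written 5′ to 3′ with the seed in capitals.
miR-101a-3p: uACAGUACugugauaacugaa
miR-101b-3p: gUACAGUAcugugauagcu
miR-101a-5p: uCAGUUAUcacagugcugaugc
miR-101b-5p: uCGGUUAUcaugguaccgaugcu
miR-101c: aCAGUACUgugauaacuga
The annotated miR-101b-3p starts 1 base before miR-101a-3p, so their annotated seeds are shifted by 1 base against each other. Over the 21 bases of miR-101a-3p the same window of the Mir101b hairpin is identical at 20. The exception is A16G, counted from 1 at the 5′ end of miR-101a-3p, with its base first. The table counts reads per annotated locus and holds no read starts, so it cannot show which 5′ end the reads of miR-101b-3p had. The 5p arms differ more, at 5 of 22 bases (A3G, C11U, A12G, G15A and U17C, counted from the 5′ end of miR-101a-5p). The annotated miR-101c, a separate locus on mm9 chromosome 9 (3038680 to 3038698), lies entirely within miR-101a-3p, from its base 2 to its base 20, and is no member of the set.

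The hairpins show how the arms sit, with the mature arms in capitals.
Mir101a: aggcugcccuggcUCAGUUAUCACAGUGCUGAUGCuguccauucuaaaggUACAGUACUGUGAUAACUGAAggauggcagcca
Mir101b: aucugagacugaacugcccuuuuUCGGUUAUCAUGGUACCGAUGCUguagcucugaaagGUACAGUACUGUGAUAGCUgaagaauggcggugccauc
On mm9, the build of the table, miR-101a-3p lies on chromosome 4 from 101019562 to 101019582 and miR-101a-5p from 101019598 to 101019619. In the GENCODE annotation of a later build this hairpin overlaps an exon of the long non-coding RNA E130102H24Rik. miR-101b-5p lies on mm9 chromosome 19 from 29209792 to 29209814 and miR-101b-3p from 29209828 to 29209846. That hairpin lies in an intron of Rcl1, a gene for a protein of ribosomal RNA processing, on the same strand. Neither host transcript was measured here.

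The libraries held 2953955 to 5516430 microRNA counts, so that 3 counts stand for 0.544 to 1.02 CPM, the count scaled to a common library size. This floor covers counting error only, since the reads carry no molecular identifiers. CPM below use TMM scaling, which sets library sizes by the names that differ least, and as mature arms are of nearly equal length and read whole, they were not divided by length. The labelled tissue was checked by miR-122-5p, which dominates hepatocytes. It was the most abundant name in the table, with 319020 ± 8682 CPM in male livers and 343050 ± 22759 CPM in female livers (mean ± SD, n = 6 each). In whole tissue, fewer cells of a type and less RNA per cell cannot be told apart.

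The guide arms were abundant and the opposite arms were close to the floor. Together the 4 arms held 2.55 ± 0.575% of the counts of male livers and 2.27 ± 0.197% of those of female livers (mean ± SD, n = 6 each). Of their 1183898 reads over the 12 livers, miR-101b-3p took 70.2% and miR-101a-3p 29.8%. miR-101b-5p had 216 reads in all and miR-101a-5p had 107. By mean CPM, miR-101b-3p ranked 13 of the 1906 names and miR-101a-3p ranked 20, while miR-101b-5p ranked 369 and miR-101a-5p ranked 427. miR-101c had 698 reads, or 0.198% of the reads given to it or to miR-101a-3p, between 0.174% and 0.311% in single livers. A read of bases 2 to 20 of miR-101a-3p matches both loci, so reads cannot be assigned with certainty, but the number at stake is small beside miR-101a-3p.

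mmu-miR-101b-3p, the most abundant arm of the family, counted between 10090 and 25535 CPM in male livers (median 20078) and between 13698 and 16290 CPM in female livers (median 15071). 5 of the 6 males lay above every female, and male 1 lay below every female. The means were 19069 ± 5245 CPM in male livers and 15060 ± 1060 CPM in female livers (mean ± SD, n = 6 each). In the fit over all 419 names, males over females gave a log2 fold change of 0.34 (SE 0.17).

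mmu-miR-101a-3p, the guide of the other hairpin, counted between 4258 and 9622 CPM in male livers (median 8159) and between 5435 and 7355 CPM in female livers (median 7114). The sexes overlapped more than for miR-101b-3p: 4 males lay above every female, and male 1 was again the lowest of all livers. The means were 7699 ± 1934 CPM in male livers and 6773 ± 775 CPM in female livers (mean ± SD, n = 6 each), with a log2 fold change of 0.18 (SE 0.16).

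mmu-miR-101b-5p, the opposite arm of the Mir101b hairpin, counted between 3.64 and 11.05 CPM in male livers (median 7.97) and between 0.870 and 2.37 CPM in female livers (median 1.66). All 6 males lay above every female, with male 4 the lowest male and female 2 the highest female. The means were 7.73 ± 3.01 CPM in male livers and 1.65 ± 0.560 CPM in female livers (mean ± SD, n = 6 each). The read counts behind these values were 15 to 41 per male liver and 3 to 10 per female liver. Summed, they were 174 reads in males, with an exact 95% Poisson interval of 149 to 202, and 42 in females, with an interval of 30.3 to 56.8, both covering counting error only. From the fit over all names, the log2 fold change was 2.19 (SE 0.31). The arm passed the filter through the male livers alone, and in females it lay near the floor of 3 counts.

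mmu-miR-101a-5p, the opposite arm of the Mir101a hairpin, counted between 0.516 and 3.24 CPM in male livers (median 2.37) and between 1.47 and 3.15 CPM in female livers (median 2.45). The sexes overlapped over most of their ranges, and males 3 and 6, with 2 reads each, were the lowest livers. The means were 2.02 ± 1.15 CPM in male livers and 2.41 ± 0.682 CPM in female livers (mean ± SD, n = 6 each). This arm did not pass the filter. In a fit of every name with at least 1 count it had a log2 fold change of -0.19 (SE 0.39).

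**Figure D1:**
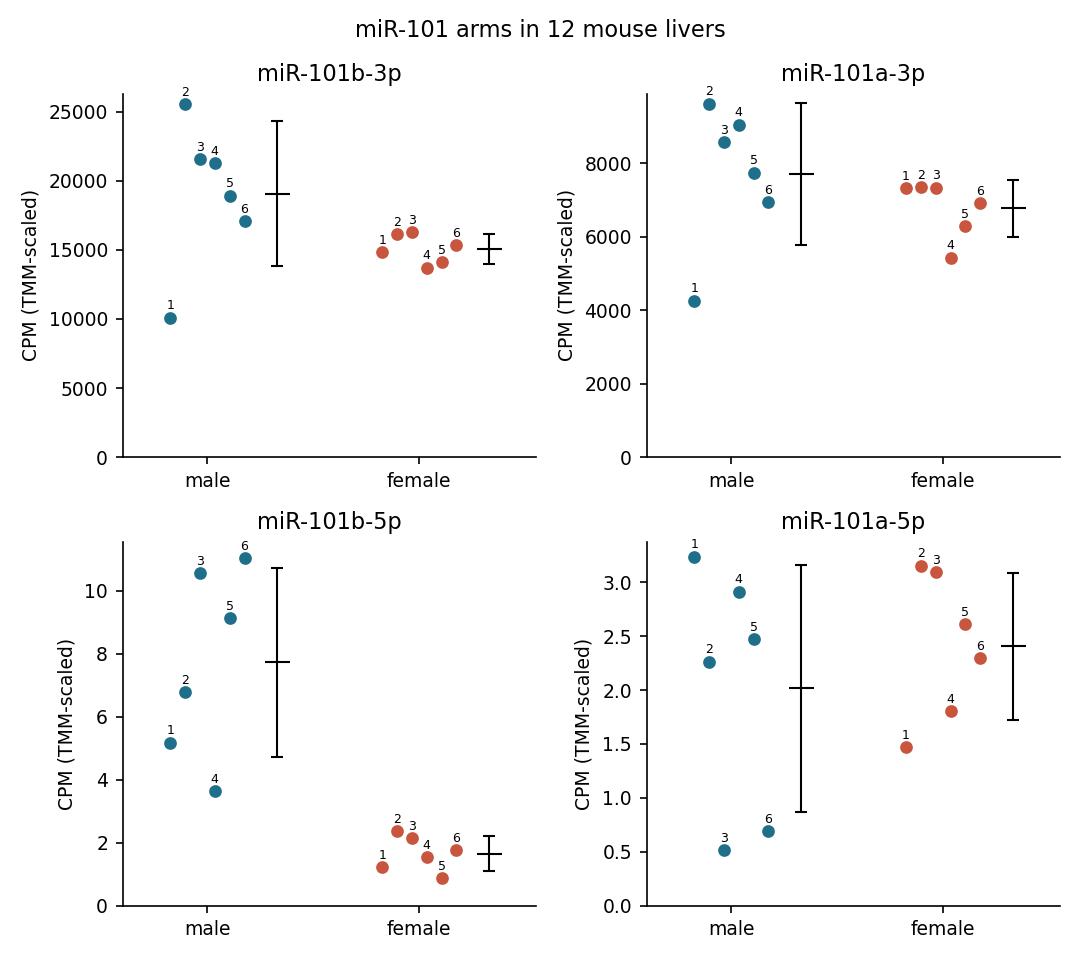
TMM-scaled CPM of each miR-101 arm in every liver, males left and females right, with 1 point per liver labelled by its replicate number and bars showing the mean ± SD (n = 6). miR-101b-5p is the arm whose male points (3.64 to 11.05 CPM) all lie above its female points (0.870 to 2.37 CPM), and male 1 is the lowest liver for both 3p arms.

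Across all names, edgeR's quasi-likelihood test called 71 of 419 at a Benjamini-Hochberg adjusted p under 0.05, or 16.9%, with 35 (8.35%) higher and 36 (8.59%) lower in males. Of the 3 miR-101 arms tested, 1 is among these, miR-101b-5p, which was chosen with this difference known and passed the filter through the males, so nothing is read from the count. The 419 and the 71 also hold names with the same values as another. For example, miR-374b-5p and miR-374c-3p, both called, each had means of 297 CPM in males and 412 CPM in females. With libraries scaled by total counts alone, 31.0% of the calls were higher in males, against 49.3% with TMM, and the median log2 fold change of all names was -0.125 against -0.02. The differences of the 2 guide arms, 0.06 for miR-101a-3p and 0.22 for miR-101b-3p with that scaling, kept their direction. Without male 1, the log2 fold change of miR-101b-3p with TMM was 0.46, and without male 2 it was 0.23. The sexes did not overlap in 34 of the 419 names, or 8.11%, comprising 19 (4.53%) with all males above all females, as in miR-101b-5p, and 15 (3.58%) with all females above all males. In the authors' deposited table the log2 fold changes of male over female were 2.22 for miR-101b-5p, 0.38 for miR-101b-3p, 0.23 for miR-101a-3p and -0.20 for miR-101a-5p.

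The order of the arms within a liver was not what the family was chosen on. miR-101b-3p exceeded miR-101a-3p in 12 of 12 livers, by a mean log2 ratio of 1.23 ± 0.11 (SD, n = 12), or 2.34-fold (exact two-sided sign-flip permutation test, p = 0.000488, the smallest that 12 livers allow). Within the sexes the mean was 1.30 ± 0.06 in male livers and 1.16 ± 0.10 in female livers (mean ± SD, n = 6 each, exact p = 0.0313 in either sex, the smallest that 6 livers allow). As plain read ratios these were 2.35 to 2.65 in males (median 2.45) and 2.02 to 2.52 in females (median 2.22). The ranges overlapped, with 1 male above every female and female 4 within the male range. Library preparation can favour some sequences over others, so a ratio between 2 microRNAs is one of reads and need not be that of molecules.

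The 3p arms of the 2 hairpins, which lie on different chromosomes, varied together from liver to liver. Of the 6 pairs among the 4 arms, this was the one past the adjusted threshold, with Pearson's r = 0.952 (permutation p = 1e-05, the smallest that 100000 resamples give, adjusted over the 6 pairs 6e-05) and Spearman's rho = 0.930 (permutation p = 5e-05, adjusted p = 0.0003) over 12 livers. Without males 1 and 2, the livers farthest from the median of miR-101b-3p, r was 0.895. Within the sexes r was 0.993 in males (exact permutation p = 0.00278, adjusted p = 0.0167) and 0.861 in females (exact permutation p = 0.0111, adjusted p = 0.0667). The spread between livers of a sex was 0.34 for miR-101b-3p and 0.33 for miR-101a-3p as a pooled SD of log2 CPM, but 0.08 for the log2 ratio of both. The coefficient of variation between livers was 27.5% in males and 7.04% in females for miR-101b-3p, and 25.1% in males and 11.4% in females for miR-101a-3p. Over the 21 bases of miR-101a-3p the Mir101b hairpin is identical at 20. Reads too short or too damaged to show the differing base could thus be given to either locus, and their part in the correlation was not tested.

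**Figure D2:**
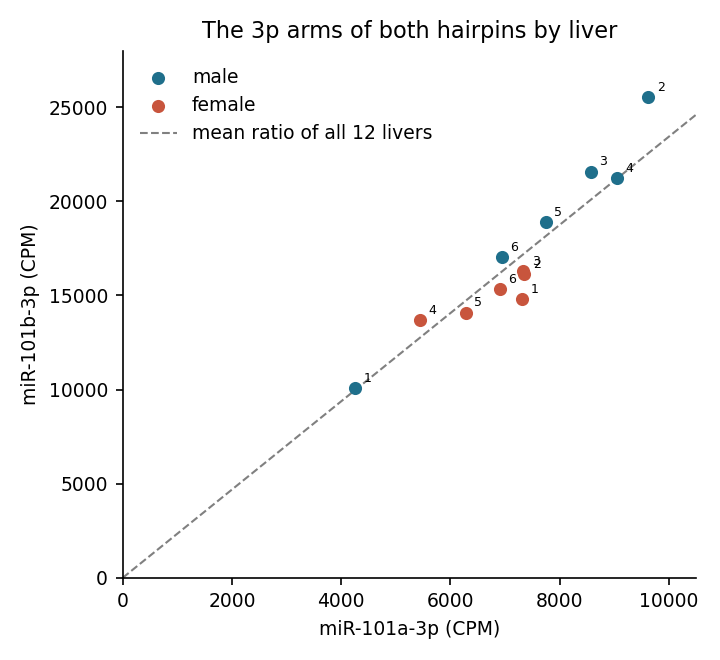
CPM of miR-101b-3p against miR-101a-3p, with 1 point per liver labelled by its replicate number, males and females in different colours, and a dashed line at the mean ratio of 2.34. The livers lie close to the line from male 1 (4258 and 10090 CPM) to male 2 (9622 and 25535 CPM).

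The same values were computed for the 2 arms of a hairpin, and their difference from those of the 3p arms was not tested. miR-101b-3p and miR-101b-5p, cut from the same hairpin, had r = 0.471 over 12 livers (permutation p = 0.123, adjusted over the 6 pairs p = 0.275) and rho = 0.657 (permutation p = 0.0237, adjusted p = 0.071). Within the sexes r was 0.166 over the 6 males (exact permutation p = 0.786) and 0.773 over the 6 females (exact permutation p = 0.0764). Without males 1 and 2, r over the remaining livers was 0.769. With the mean of each sex taken off, r over the 12 livers was 0.227. miR-101b-5p was chosen for its difference between the sexes, so nothing is read from its values over all 12 livers. miR-101a-3p and miR-101a-5p had r = -0.214 (permutation p = 0.501, adjusted p = 0.501) and rho = -0.147 (permutation p = 0.651, adjusted p = 0.651). miR-101b-5p had 15 to 41 reads per male liver and 3 to 10 per female liver, and miR-101a-5p had 107 reads over the 12 livers.

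Per 100000 reads of the 3p arm, the Mir101b hairpin gave between 17.1 and 64.8 reads of the 5p arm in males (median 48.7) and between 6.18 and 14.7 in females (median 11.4). All 6 males lay above every female, male 4 by the smallest margin. The means were 42.9 ± 17.6 in male livers and 10.8 ± 3.13 in female livers (mean ± SD, n = 6 each). The Mir101a hairpin gave between 6.02 and 76.0 reads of its 5p arm in males (median 27.7) and between 20.1 and 42.9 in females (median 37.4). Here the sexes overlapped, with male 1 the highest and male 3 the lowest liver. The means were 29.9 ± 25.1 in male livers and 35.5 ± 8.76 in female livers (mean ± SD, n = 6 each).

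The order of the opposite arms differed between the sexes, a description only, since miR-101b-5p was singled out for its difference between them. miR-101b-5p had more reads than miR-101a-5p in 6 of 6 males, with ratios of 1.25 to 20.5, the highest in males 3 and 6, where miR-101a-5p had 2 reads. It had fewer in 6 of 6 females, with ratios of 0.333 to 0.857. The female ratios rest on 3 to 10 reads of miR-101b-5p and 6 to 13 reads of miR-101a-5p per liver. Among females the ranges of both arms in CPM overlapped and their means differed by less than the sum of their SDs. Each guide arm lay far above both opposite arms in every liver.

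The log2 ratio of 5p to 3p was set beside that of the other hairpins among 124 with both arms tested under the same hairpin name. Some of the 124 are copies with the arms exchanged, such as miR-299a and miR-299b (mean log2 ratios of -2.41 and 2.41). The ranks and medians are thus over hairpin names and not over separate signals. For Mir101b it is a description with no test, since its 5p arm was singled out on the same values and is among the 124 through its male livers. The ratio averaged -11.21 ± 0.69 in male livers and -12.81 ± 0.32 in female livers (mean ± SD, n = 6 each, prior count of 2), a difference of 1.60, or 1.82 with a prior count of 0.5. The median size of this difference over the 124 hairpins was 0.18, and it was -1.27 for miR-409, the largest after Mir101b. In 48 hairpins whose rarer arm averaged under 10 CPM, as miR-101b-5p does at 4.69 CPM, the median size was 0.23. Mir101b was also among the most one-sided hairpins, ranking 3 of 124 by the size of its mean log2 ratio. Mir101a is not among the 124, since its 5p arm did not pass the filter. The mean log2 ratio of Mir101a was -11.70 in male livers and -11.21 in female livers. Hairpins whose rarer arm is under the filter are left out. So are arms whose names differ by a locus number, such as let-7c-5p and let-7c-1-3p, though both were tested. The rank and the medians thus hold among the 124 only.

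**Figure D3:**
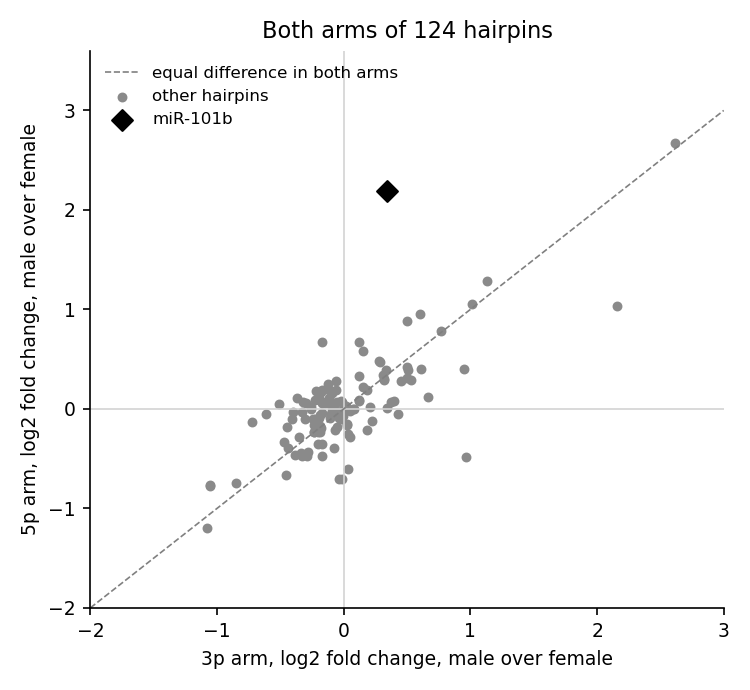
Log2 fold change of male over female for the 5p arm against that for the 3p arm of 124 hairpins. Shown are those with both arms tested under the same hairpin name, with 1 point per hairpin. A dashed line marks where both arms would differ equally. miR-101b (diamond, 0.34 for the 3p arm and 2.19 for the 5p arm) lies far from the line, and was chosen with its difference known.

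The names whose levels were most like those of the guide arms over the 12 livers, by Pearson's r of log2 CPM and leaving out the family itself, were the same for both. They were miR-30a-5p (0.937 with miR-101a-3p and 0.892 with miR-101b-3p), miR-126a-5p (0.893 and 0.814) and miR-126b-3p (0.893 and 0.813). The loci of the last 2 names overlap (mm9 chromosome 2, 26446885 to 26446905 and 26446883 to 26446905) and held 136799 and 136878 reads, so they are a single signal. miR-30a-5p had 21823 CPM in male livers and 19581 CPM in female livers on average, and miR-126a-5p, of an endothelial hairpin, had 2817 CPM in male livers and 2821 CPM in female livers. For miR-101b-5p they were miR-1948-5p (0.923), miR-21a-5p (0.903) and miR-30e-5p (0.894), all called higher in males by edgeR's test. Within the sexes these 3 values were 0.789, 0.406 and 0.641 in males and -0.427, 0.513 and 0.511 in females. miR-101b-5p was chosen for its difference between the sexes, and nothing is read from which names are close to it over all 12 livers.

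Other cell types of the liver were read from marker microRNAs. The endothelial markers (both arms of miR-126a) summed to between 21232 and 28894 CPM in male livers and between 24161 and 27335 CPM in female livers. The erythroid markers (miR-451a, both arms of miR-144 and miR-486a-5p) summed to between 910 and 3654 CPM in male livers and between 1776 and 2631 CPM in female livers. The stellate and smooth muscle markers (5 names) summed to between 10001 and 15645 CPM in male livers and between 14470 and 17325 CPM in female livers, the immune markers (5 names) to between 500 and 986 CPM in males and between 799 and 1098 CPM in females, and the epithelial markers (3 names) to between 735 and 7029 CPM in males and between 2265 and 7817 CPM in females. The hepatocyte markers (4 names) summed to between 459530 and 497320 CPM in males and between 488780 and 538700 CPM in females, and those of striated muscle (2 names) to between 7.62 and 129 CPM in males and between 9.05 and 39.5 CPM in females. No marker was at 0 in all livers. Of the 25 marker names, edgeR called 0 higher in males, where 8.35% of all names were called higher. At an unadjusted p under 0.05, 0 were higher, and 0 by DESeq2. EdgeR called 2 lower, where 8.59% of all names were called lower, with 4 lower at an unadjusted p under 0.05 and 3 by DESeq2. Over all 419 names DESeq2 called 44 higher and 41 lower. With 25 names, nothing is read from these counts. The 2 called lower by edgeR were miR-143-3p of smooth muscle and stellate cells (log2 fold change -0.34, adjusted p = 0.0263) and miR-142a-5p of blood cells (-0.47, adjusted p = 0.0256). Other markers of the stellate list lay on both sides: miR-199a-3p at -0.18, miR-214-3p at -0.11, miR-145a-5p at 0.07 and miR-199a-5p at 0.08. The other arm of the miR-142a hairpin, miR-142a-3p, was at -0.17 (edgeR adjusted p = 0.762). Male 1, the lowest liver for both guide arms, had the lowest hepatocyte, endothelial, immune and epithelial sums and the highest erythroid and stellate sums of the males. Not every marker followed the sum of its list. Of the males, male 1 had the highest level of the hepatocyte marker miR-122-5p (326510 CPM). It had the lowest level of the erythroid marker miR-144-3p (93.6 CPM), while miR-451a was at its highest (2972 CPM). The part of cell composition in the values of the miR-101 arms was not tested.

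2 further names share bases 2 to 7 of their mature sequence with a miR-101 guide by their RefSeq sequences. They are shown because targets could be shared through these bases.
miR-144-3p: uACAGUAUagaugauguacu
miR-582-5p: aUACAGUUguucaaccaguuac
miR-144-3p, an erythroid microRNA, shares its bases 2 to 7 with miR-101a-3p. Its level was 170 ± 63.0 CPM in male livers and 281 ± 63.7 CPM in female livers (mean ± SD, n = 6 each). The log2 fold change of -0.72 missed edgeR's threshold (adjusted p = 0.0531) and passed by DESeq2 (adjusted p = 0.0214). The other arm of its hairpin, miR-144-5p, was at -0.13 (edgeR adjusted p = 0.700). The erythroid markers miR-451a and miR-486a-5p were at -0.01 and -0.23 (edgeR adjusted p = 0.990 and 0.579). miR-582-5p, which shares its bases 2 to 7 with the annotated miR-101b-3p, was not tested, with 0.562 ± 0.153 CPM in male livers and 0.859 ± 0.584 CPM in female livers. miR-144-3p and miR-582-5p were thus far rarer than the guide arms of miR-101.

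Of 5 other microRNAs known to repress Ezh2, 3 passed the filter and edgeR called 0, with 0 at an unadjusted p under 0.05 and 0 by DESeq2. With 3 names tested, and 16.9% of all names called, this count says nothing about the list. Their median log2 fold change was 0.07, against -0.02 for all names. miR-26a-5p had 22213 ± 1691 CPM in male livers and 21215 ± 1058 CPM in female livers (log2 fold change 0.07, edgeR adjusted p = 0.478). miR-26b-5p had 6062 ± 423 CPM in male livers and 5727 ± 237 CPM in female livers (0.08, edgeR adjusted p = 0.351). miR-214-3p, also a stellate cell marker, had 35.7 ± 4.06 CPM in male livers and 38.6 ± 2.14 CPM in female livers (-0.11, edgeR adjusted p = 0.489). miR-138-5p averaged 1.01 CPM in male livers and 0.529 CPM in female livers, and miR-124-3p had no read in males and 0.0691 CPM in female livers.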

How the data were processed

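For each of the 12 livers a small RNA library was prepared from Trizol-extracted RNA of flash-frozen tissue, per the labels' protocols. In the submitters' processing notes the tools are Trim Galore, Bowtie2, edgeR and bedtools, and the build is mm9. Tool versions, alignment settings and whether strand was used in counting were not given in the sources used here. Whole-number read counts of 2044 mature loci, not normalized, were deposited by the authors. They also deposited their own log2 fold changes, log2 CPM, p-values and FDR from edgeR, per the file headers, of which only the fold changes are given here.

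Counts of loci with the same name were summed, which gave 1906 names. Names were filtered with filterByExpr (419 kept, 99.97% of counts), scaled by TMM (trimmed mean of M values) and tested by the quasi-likelihood F-test of edgeR 4.0.16 under R 4.3.3 (no covariate, Benjamini-Hochberg threshold 0.05). Log2 CPM used a prior count of 2. Alternatives were DESeq2 1.42.0, other scalings and filters, a replicate block and leaving out each liver. The fit was tested on simulated data. Ratios and correlations used exact or resampled permutation tests in SciPy 1.17.1. Named are the 4 arms, miR-101c, the 3 names most like each tested arm, and the members of the lists. The members, the lists and the rule were chosen with earlier results of these data known. Marker names were matched to the table's mouse names (miR-126a for miR-126, for example). RefSeq held all 4 arms.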

Additional observations from a re-analysis of the deposited data

Results flagged for a closer look

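Among 16 groups of 6 livers checked for a liver far from the others, 2 were found, where chance gives about 1 in 20 groups. Male 1 had 76.0 reads of miR-101a-5p per 100000 reads of miR-101a-3p, far above the other males, which had 6.02 to 32.2. It rests on 10 reads of the 5p arm and the lowest 3p level of all livers. Female 5 had 0.333 reads of miR-101b-5p per read of miR-101a-5p, below the other females, which had 0.692 to 0.857. It rests on 3 and 9 reads.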

How the results depend on the processing

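Of 150 alternative values over 15 results, 147 were counted as unchanged. Fold changes and 5p to 3p ratios had to move by less than the spread between livers. This spread was larger than the fold change itself for miR-101a-3p (0.33 against 0.18) and miR-101a-5p (0.63 against -0.19). For these arms a value counted as unchanged could have lost or reversed the difference. The guide-arm ratio and the correlations had to keep their direction and their side of the threshold. Since miR-101b-3p exceeded miR-101a-3p in 12 of 12 livers, leaving out a liver could not move that ratio across the threshold. The number of miR-101 arms called had to be the same. For the number of names called a fixed fold from 71 was allowed, so 48 was counted as unchanged and 47 was not. The number of microRNAs called across the table was 71 and lay between 47 and 82 with each liver left out in turn, the lowest without male 3. It was 48 with a replicate block. The correlations of same-numbered livers lay between -0.127 and 0.302, and 0 of 6 males matched their own number best. No pairing by replicate number was seen, but 6 pairs are too few to exclude one. The number of miR-101 arms called was 1 and lay between 1 and 2 with each liver left out. It was 2 without male 1, where 82 of 424 names were called. It was 0 with the filter set to a mean of 10 CPM or more, which leaves miR-101b-5p untested. The arms were chosen with their male-female values known, so nothing is read from this number. The log2 fold change of miR-101b-5p lay between 2.07 and 2.33 over 18 alternatives, that of miR-101b-3p between 0.22 and 0.46 and that of miR-101a-3p between 0.06 and 0.30 over 19 each. The log2 ratio of the guide arms lay between 1.21 and 1.25, also with miR-101c added to miR-101a-3p. The male-female difference in the arm ratio of Mir101b lay between 1.46 and 1.82, and that of Mir101a between -0.79 and -0.22. Depth limits both 5p arms, with 2 to 41 reads per liver.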

Other observations

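The base composition of the mature sequences was set beside the libraries after the data were seen, for the 360 of 419 tested names with a RefSeq sequence. miR-101a-3p has a GC content of 33.3% and miR-101b-3p of 42.1%, where the quartiles of these names are 40.9% and 54.5%. In male 1, the 83 names under 40% GC lay at a median log2 CPM of -0.24 relative to the mean of the other males, and the 149 names of at least 50% GC at 0.16. In the other 11 livers, each against the rest of its sex, the same medians lay between -0.13 and 0.13 for names under 40% GC. Across names, Spearman's rho of GC content and this deviation was 0.319 in male 1 and between -0.259 and 0.224 in the other livers, a description over names that share a library. The part of base composition in the low guide-arm levels of male 1 was not tested.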
